A study of Homo sapiens with 9 samples.

Results

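The subject is the UGT2B family of UDP-glucuronosyltransferases in LNCaP cells, an established human prostate cancer line of luminal type that responds to androgen. The members were chosen by name as the UGT2B enzymes tied to steroid conjugation: UGT2B28, UGT2B11, UGT2B15, UGT2B17, UGT2B10, UGT2B4 and UGT2B7, which are 7 of 60880 genes in the count tables. RNA was sequenced from 3 groups of 3 libraries. Rescue cells carried the UGT2B28 knockdown with UGT2B28 overexpressed on top and were selected with G418 at 1 mg/mL. Knockdown cells came from 1 knockdown line, selected with puromycin at 3 µg/mL. Control cells were labelled non-targeting, and no selection is named for them. All 9 libraries were total RNA at a labelled time of 24 h, from cells grown in RPMI medium with serum. The knockdown reagent's sequence is not given in the sources used here. Whether replicates came from separate cultures is not stated in the labels; the p-values therefore reflect the spread among the libraries at hand, and that spread may be technical.

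UGT2B enzymes sit in the membrane of the endoplasmic reticulum and transfer glucuronic acid from UDP-glucuronate to a steroid, bile acid, drug or fatty acid. The product is water soluble, no longer binds its receptor and is exported from the cell. In the prostate, UGT2B15 and UGT2B17 are the main enzymes that inactivate dihydrotestosterone and its metabolites in this way, and androgen is known to repress both genes in LNCaP cells. UGT2B28 also conjugates androgens, and the substrates of UGT2B11 are less well defined. UGT2B7, UGT2B4 and UGT2B10 are best known from the liver, where they act on opioids and estrogens, on bile acids, and on nicotine and related amines.

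The 7 genes are close paralogs, and how far their sequences part decides which reads can be told apart. In the coding transcripts of GENCODE v29, UGT2B28 and UGT2B11 were identical at 97.0% of aligned coding bases and 94.7% of protein residues. UGT2B15 and UGT2B17 formed a second close pair, with 96.5% and 94.2%. Between the pairs, UGT2B28 shared 84.1% of coding bases with UGT2B15 and 84.2% with UGT2B17. The start of the coding sequence is printed for the 4 members that carry the results. It was chosen as the window of 90 bases, aligned without gaps, with the most differences between UGT2B28 and UGT2B11. It therefore shows this pair as less alike than the whole coding sequence does. The lines give coding bases 4 to 93, counted from 1 at the start codon, on chromosome 4, and capitals mark bases unlike UGT2B28.
UGT2B28: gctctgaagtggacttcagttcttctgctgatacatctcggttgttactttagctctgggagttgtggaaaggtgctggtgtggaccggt
UGT2B11: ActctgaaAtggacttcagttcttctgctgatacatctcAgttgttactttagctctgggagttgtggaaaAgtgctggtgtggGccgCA
UGT2B15: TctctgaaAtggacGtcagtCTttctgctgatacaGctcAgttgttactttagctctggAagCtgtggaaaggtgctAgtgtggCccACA
UGT2B17: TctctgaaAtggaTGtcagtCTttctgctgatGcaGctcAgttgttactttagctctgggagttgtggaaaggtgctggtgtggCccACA
In this window UGT2B11 differed from UGT2B28 at 7 bases, UGT2B15 at 14 and UGT2B17 at 13. The window is followed by the longest coding run that UGT2B28 and UGT2B11 share without a mismatch, coding bases 94 to 203, a run of 110 bases.
Shared run: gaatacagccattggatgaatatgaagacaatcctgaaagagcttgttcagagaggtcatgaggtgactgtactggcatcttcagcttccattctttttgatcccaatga

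**Figure D1:**
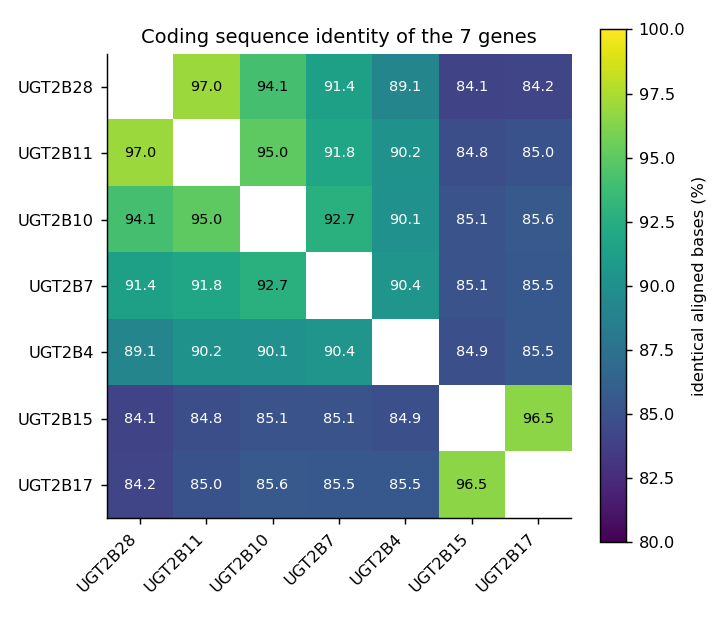
Identity of the coding sequences of the 7 genes, as the percentage of aligned bases that are identical in each pair. UGT2B28 with UGT2B11 (97.0%) and UGT2B15 with UGT2B17 (96.5%) are the closest pairs, and UGT2B28 is least like UGT2B15 (84.1%).

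The sequenced reads were 150 bases long. None of the 1684 stretches of that length in the UGT2B28 transcript occurred in another UGT2A or UGT2B transcript. UGT2B11 had 27 of 1939 such stretches in common with another of these transcripts (1.39%), and UGT2B15 and UGT2B17 had 94 of 1928 each (4.88%). Reads that align to several places were counted apart and not given to a gene. The levels of the 4 genes thus rest mostly on stretches found in 1 gene among those searched, but a read with sequencing errors can still be given to the wrong paralog. Pseudogenes of the cluster under other names and the rest of the genome were not searched. Of the shorter stretches of 21 bases in UGT2B28, 55.5% also occurred in UGT2B11, against 1.71% in UGT2B15 and 4.14% in UGT2B17.

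Gene counts summed to between 20300744 and 26459528 per library. After a filter on low counts 18389 genes were tested, and 4 of the 7 members passed it: UGT2B28, UGT2B11, UGT2B15 and UGT2B17. All 9 luminal prostate markers on the list used here were tested, with summed levels of 8960 to 9950 CPM (gene counts scaled to a common library depth) in rescue, 8910 to 9380 in knockdown and 3990 to 4280 in control. Of 6 markers of hepatocytes, the other cell type known for these enzymes, 2 passed the filter. The hepatocyte-defining gene ALB had 1 read in rescue, 0 in knockdown and 23 in control over 3 libraries each. The 3 leukocyte markers, of which CD3E and PTPRC were at 0 in all 9 libraries, summed to 2.11 to 3.14 CPM in rescue, 2.52 to 3.54 in knockdown and 2.17 to 3.18 in control. The 2 endothelial markers in the tables summed to 5.37 to 7.22 CPM in rescue, 5.15 to 6.17 in knockdown and 1.76 to 3.07 in control. Summed luminal and endothelial markers were thus higher in every rescue and knockdown library than in every control library, and their part in the UGT2B results was not tested.

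UGT2B28, the targeted gene, was high only in the libraries in which it was overexpressed. It had 1124, 1554 and 1857 counts in rescue, 17, 8 and 1 in knockdown and 25, 4 and 10 in control. The knockdown and control libraries overlapped, and every rescue library lay far above both. Mean levels were 62.3 ± 7.22 CPM in rescue, 0.343 ± 0.301 in knockdown and 0.525 ± 0.38 in control (SD, n = 3 each). The log2 difference was 7.41 for rescue against knockdown (SE 0.34; edgeR quasi-likelihood test, adjusted p = 2.7e-08) and 6.81 for rescue against control (SE 0.32, adjusted p = 2.6e-09). Both sizes rest on few reads. With each library left out in turn, the difference from knockdown ranged from 6.949 to 8.264, highest without knockdown replicate 1. The difference from control ranged from 6.437 to 7.578, highest without control replicate 1. Between knockdown and control the log2 fold change was −0.60 (SE 0.62, adjusted p = 0.52), and without control replicate 1 its sign turned, to 0.164. A lower UGT2B28 level in the libraries labelled knockdown was not detectable at this depth, and the gene was close to 0 in control too. Reads of the introduced copy and of the cell's own gene are counted together. Among all tested genes the level of UGT2B28 was at percentile 81.2 in rescue, 4.3 in knockdown and 9.3 in control.

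**Figure D2:**
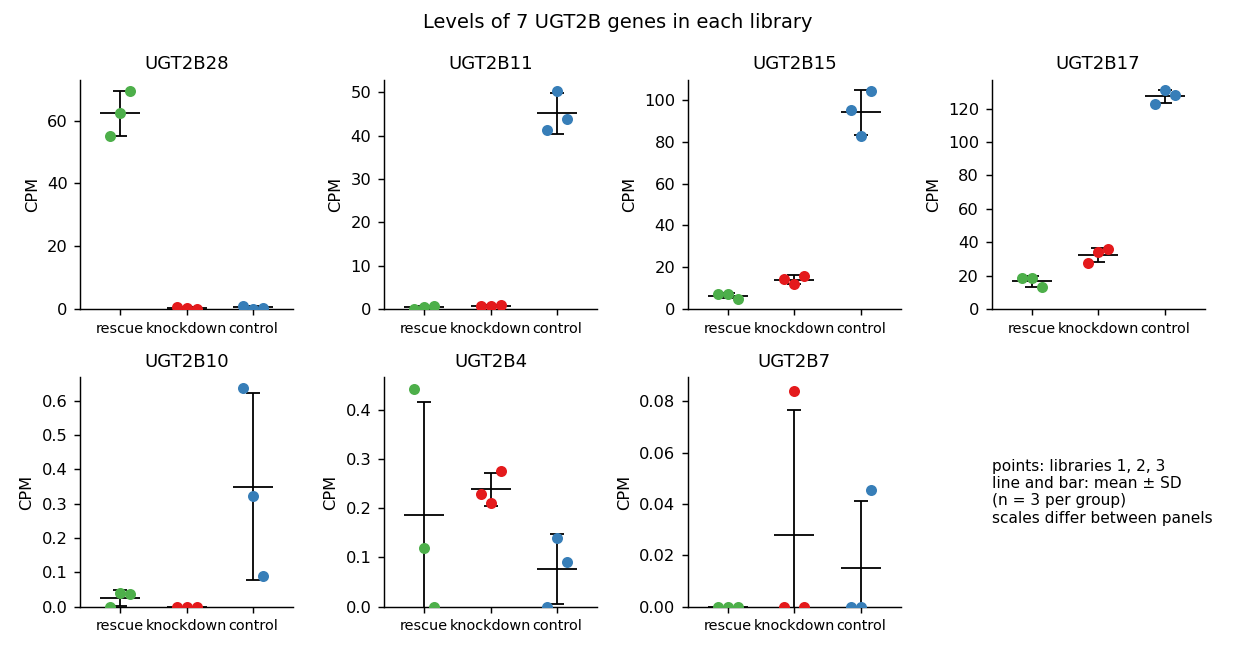
Level of each of the 7 genes in CPM in each library of rescue, knockdown and control, with the mean and SD (n = 3 per group; bars that reach below 0 end at the axis, and scales differ between panels). UGT2B28 is high in rescue alone, UGT2B11, UGT2B15 and UGT2B17 are high in control, and the 3 genes of the lower row stay under 1 CPM.

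Knockdown was then set against control, the comparison that asks what differs when UGT2B28 is targeted. Knockdown cells came from 1 line under puromycin and no selection is named for control cells, so targeting, line and selection cannot be told apart. Of the 4 tested members 3 were called lower, 0 higher and 1, UGT2B28, was not called, at an adjusted p under 0.05; over all genes 32.1% were called. The median log2 fold change of the 4 was −2.36, beside 0.01 over all tested genes. In bulk RNA, fewer cells of a type and less RNA per cell cannot be told apart.

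UGT2B15, an enzyme for dihydrotestosterone and androstanediol, had 384, 281 and 344 counts in knockdown, against 2545, 1788 and 2283 in control. That is 14.1 ± 2.06 CPM in knockdown and 93.9 ± 10.4 CPM in control. The groups did not overlap, and UGT2B15 fell by 2.74 on the log2 scale (SE 0.13, adjusted p = 2e-15), a level 6.67-fold lower. UGT2B17, which conjugates testosterone and androsterone as well, had 726, 812 and 781 counts in knockdown, against 3286, 2829 and 2815 in control. Its levels were 32.6 ± 4.34 CPM in knockdown and 127 ± 4.15 CPM in control, again without overlap. UGT2B17 fell by 1.97 (SE 0.11, adjusted p = 6.9e-13), 3.91-fold. Ranked by fold change, UGT2B15 was the 106th lowest and UGT2B17 the 273rd lowest of the tested genes.

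UGT2B11, the closest relative of UGT2B28, showed the largest fall among the 4 tested members. It had 16, 16 and 21 counts in knockdown, against 1104, 1087 and 965 in control, or 0.749 ± 0.19 CPM and 45.2 ± 4.7 CPM. No knockdown library came near a control library. The gene was 60.6-fold lower (log2 fold change −5.92, SE 0.22, adjusted p = 3.9e-17) and ranked 16th lowest of all tested genes.

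**Figure D3:**
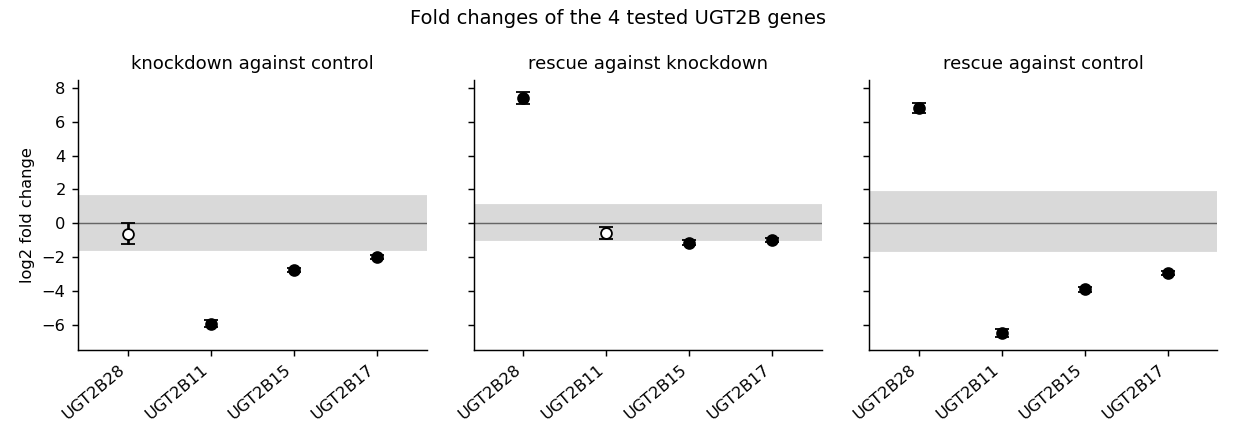
Log2 fold change (± SE) of the 4 tested members in knockdown against control, rescue against knockdown and rescue against control; filled points passed an adjusted p of 0.05, and the grey band spans the central 95% of all tested genes. UGT2B11, UGT2B15 and UGT2B17 lie below 0 in all 3 panels, and UGT2B28 lies far above 0 in both rescue panels.

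The comparison of rescue with knockdown asks what differs when UGT2B28 is overexpressed in knockdown cells; the selection antibiotic differed between these groups as well, so its effect and that of the construct cannot be told apart. Of the 4 tested members 1 was called higher, UGT2B28, 2 were called lower and 1 was not called, against 10.1% of all genes called. Because UGT2B28 is the overexpressed gene, its call was set by the design and is no response of the family. The 2 lower genes were the pair that inactivates androgen in the prostate. UGT2B15 had 144, 180 and 132 counts in rescue and 384, 281 and 344 in knockdown, or 6.4 ± 1.27 CPM in rescue and 14.1 ± 2.06 CPM in knockdown. It fell a further 2.21-fold (log2 fold change −1.14, SE 0.14, adjusted p = 2.5e-06). UGT2B17 had 378, 466 and 347 counts in rescue and 726, 812 and 781 in knockdown, or 16.7 ± 3.24 CPM in rescue and 32.6 ± 4.34 CPM in knockdown. It fell 1.95-fold (log2 fold change −0.96, SE 0.12, adjusted p = 3.8e-06). Neither gene's rescue libraries overlapped its knockdown libraries.

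UGT2B11 did not pass the test in this comparison. Its counts were 2, 15 and 19 in rescue and 16, 16 and 21 in knockdown, which overlap. The log2 fold change was −0.57 (SE 0.37, adjusted p = 0.4), and it ranged from −0.976 to −0.169 when each library was left out in turn. The gene averaged 0.47 ± 0.327 CPM in rescue and 0.749 ± 0.19 CPM in knockdown.

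In rescue against control all 4 tested members were called, 1 higher and 3 lower, where 37.8% of all genes were called. The higher one was UGT2B28, the overexpressed gene, so its call was set by the design and only the 3 others can be read beside that share. UGT2B11 was 90.1-fold lower in rescue than in control (log2 fold change −6.49, SE 0.24, adjusted p = 9.3e-18), the 11th lowest of all tested genes. UGT2B15 was 14.7-fold lower (log2 fold change −3.88, SE 0.14, adjusted p = 4.1e-18) and UGT2B17 7.63-fold lower (log2 fold change −2.93, SE 0.12, adjusted p = 5.7e-16). None of these 3 genes came back towards its control level in the rescue libraries. Rescue differed from control in knockdown, construct and named selection, and these cannot be told apart. The comparisons share libraries, so the 3 sets of fold changes are not independent of each other.

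UGT2B10, UGT2B4 and UGT2B7, the members best known from the liver, were too low for the test. UGT2B10 had 0, 1 and 1 counts in rescue, 0, 0 and 0 in knockdown and 17, 7 and 2 in control. Measured against a floor of 3 counts over a group, it was at least 9.09-fold lower in knockdown than in control. Rescue had 2 counts and control 26, a ratio of control to rescue of 13.5, with a 95% exact counting interval of 3.37 to 117, which covers counting error only. Both values rest largely on control replicate 1: without it, a setting chosen after the data were seen, the bound was 5.03 and the ratio 7.46 (1.54 to 70.9). In a fit without the filter on low counts UGT2B10 was called in knockdown against control (adjusted p = 0.014) and not in rescue against control (adjusted p = 0.12). UGT2B4 had 9, 3 and 0 counts in rescue, 6, 5 and 6 in knockdown and 0, 3 and 2 in control, with no call in that fit (adjusted p of 0.5 to 0.97). UGT2B7 had 3 counts in all: 0 in rescue, 2 in knockdown and 1 in control. The 0 in rescue allows up to 0.0417 CPM.

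To order the members, levels were divided by exon length and given as CPM per kilobase of exon. In rescue the order was UGT2B28 at 34.0 ± 3.94, UGT2B17 at 8.05 ± 1.56, UGT2B15 at 3.08 ± 0.611 and UGT2B11 at 0.201 ± 0.14. In knockdown UGT2B17 led at 15.7 ± 2.09, before UGT2B15 at 6.78 ± 0.991, UGT2B11 at 0.32 ± 0.0812 and UGT2B28 at 0.187 ± 0.164. In control the order was UGT2B17 at 61.3 ± 2.0, UGT2B15 at 45.2 ± 5.01, UGT2B11 at 19.3 ± 2.01 and UGT2B28 at 0.286 ± 0.207. Neighbours in these orders differed by more than their SDs at every step except UGT2B11 and UGT2B28 in knockdown. UGT2B10, UGT2B4 and UGT2B7 lay below 0.2 in each group. Their ranks below the 4 others are not firm: SDs overlapped for UGT2B28 and UGT2B10 (0.181 ± 0.142) in control, for UGT2B11 and UGT2B4 (0.0746 ± 0.0909) in rescue, and for UGT2B28 and UGT2B4 (0.095 ± 0.0135) in knockdown.

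The summed level of the family was 45.4 ± 2.46 CPM per kilobase in rescue, 23.1 ± 2.22 in knockdown and 126 ± 3.67 in control. UGT2B28 made up 74.7% ± 5.46 of it in rescue, 0.861% ± 0.791 in knockdown and 0.228% ± 0.169 in control. UGT2B17 made up 17.8% ± 3.99 in rescue, 67.8% ± 4.57 in knockdown and 48.5% ± 1.78 in control. The overexpressed gene therefore accounted for most of the summed UGT2B RNA in rescue, and the sum of the 7 still stayed below that of every control library. Without UGT2B28 the 6 other genes summed, in CPM, to 26.1, 26.7 and 18.7 in rescue, 43.1, 46.9 and 53.0 in knockdown and 260, 265 and 275 in control. These 3 sets of libraries did not overlap.

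**Figure D4:**
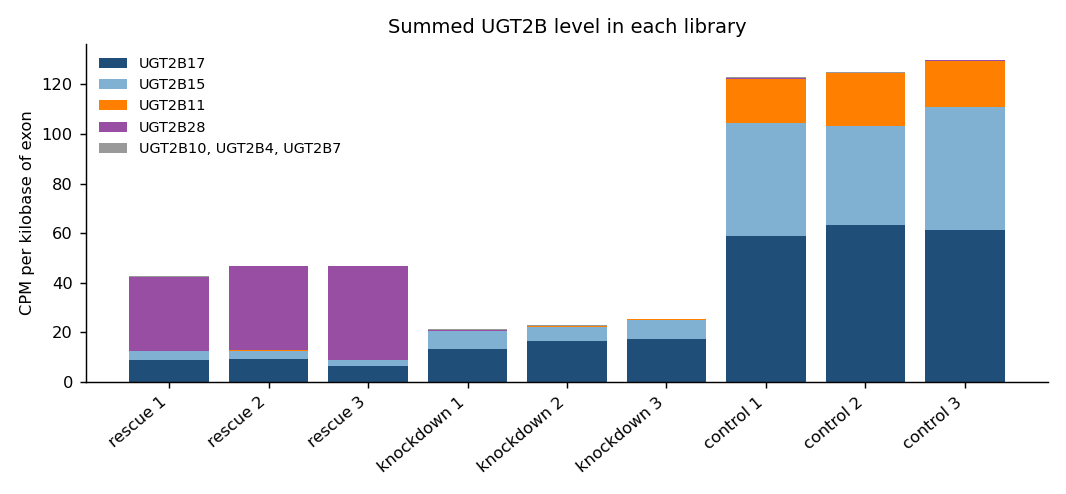
Summed level of the UGT2B genes in each library, in CPM per kilobase of exon, split by gene. The sum lies between 42.6 and 46.9 in rescue, 21.1 and 25.4 in knockdown and 123 and 130 in control, with UGT2B28 the main part in rescue and UGT2B17 and UGT2B15 the main parts in control.

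UGT2B15 and UGT2B17 are neighbours on the chromosome, and the ratio of their counts within a library does not depend on scaling between libraries. UGT2B15 had 0.381, 0.386 and 0.38 counts per count of UGT2B17 in rescue. The ratios were 0.529, 0.346 and 0.44 in knockdown and 0.774, 0.632 and 0.811 in control. Every rescue and knockdown ratio lay below every control ratio. On the log2 scale knockdown minus control was −0.77 and rescue minus control −0.94, each without overlap (two-sided exact permutation p = 0.1 for both, the smallest that 3 libraries against 3 allow). Rescue minus knockdown was −0.18 with overlap (exact permutation p = 0.4).

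The family lies in 1 cluster on chromosome 4. In the order of GENCODE v29 it holds UGT2B17, UGT2B15, UGT2B10, UGT2A3, UGT2B7, UGT2B11, UGT2B28 and UGT2B4 as its 8 protein-coding genes, among 45 annotated genes in all. Of these 45 only 5 passed the filter: the 4 members and an antisense RNA (ENSG00000250696), which overlaps exons of UGT2B11 on the opposite strand. The antisense RNA had 7, 10 and 2 counts in rescue, 1, 7 and 3 in knockdown and 263, 247 and 308 in control. Like UGT2B11 it fell, at −6.21 on the log2 scale in knockdown against control (SE 0.40, adjusted p = 8.7e-13) and at −5.44 in rescue against control (SE 0.37, adjusted p = 2e-12). The strand setting of the counting is not given in the sources used here, so reads of UGT2B11 and of this RNA cannot be told apart where they overlap. The 9 other UGT2A and UGT2B genes and pseudogenes in the tables had at most 8 counts over all 9 libraries, and 4 of them had none.

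Tested protein-coding genes on either side of the cluster did not share the size of the fall. In knockdown against control UBA6, a ubiquitin-activating enzyme, was at −0.48 on the log2 scale (SE 0.08, adjusted p = 1.1e-05) and UTP3, a ribosome biogenesis factor, at 0.65 (SE 0.11, adjusted p = 3.1e-05). YTHDC1, TMPRSS11E, SULT1B1 and ODAM were not called in that comparison, with values from −0.30 to −0.10. Few reads limit 2 of them: TMPRSS11E averaged 0.792 CPM in knockdown and 0.936 in control (SE 0.46), and SULT1B1 0.561 and 0.687 (SE 0.61). Against these, the members of the cluster that were called lower had values of −1.97 to −5.92. In rescue against control UBA6 (−0.43), ODAM (−0.86) and UTP3 (0.57) were called, and the other flanking genes were not.

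**Figure D5:**
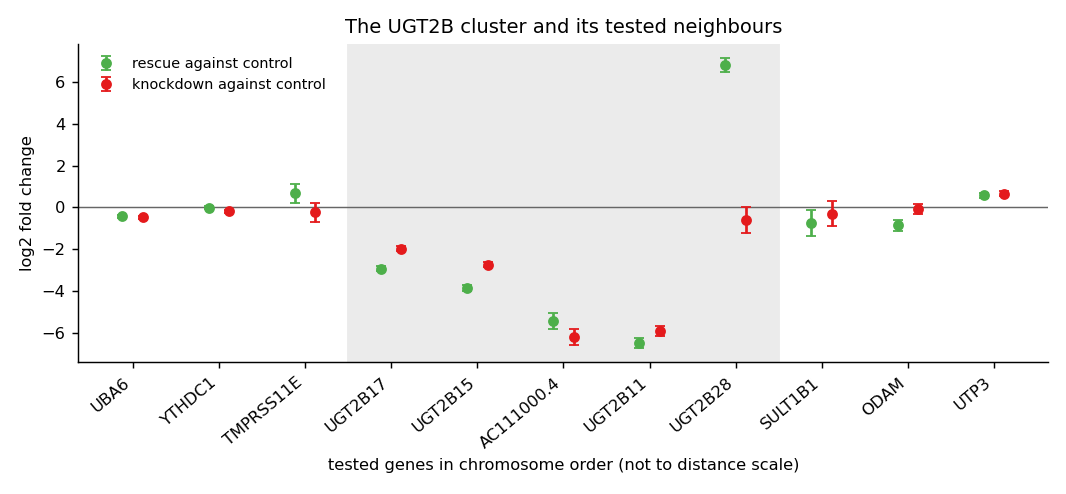
Log2 fold change (± SE) of the tested genes in and beside the UGT2B cluster, in chromosome order but not to distance, for rescue against control and knockdown against control; shading marks the cluster, and AC111000.4 is the antisense RNA at UGT2B11. UGT2B17, UGT2B15, the antisense RNA and UGT2B11 lie at −1.97 or lower in both comparisons, while the 6 flanking genes lie within 0.9 of 0.

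Since UGT2B11 and UGT2B15 fell together, the bases before their starts are shown, from RefSeq on GRCh38.p14. RefSeq promoter sequences were at hand for UGT2B11, UGT2B15, UGT2B10 and UGT2B7. Each line runs through the 250 bases before the start, and capitals mark the steroid hormone response half-site AGAACA and the forkhead motif TGTTTAC, here on the opposite strand as GTAAACA in the UGT2B15 line. The stretch of UGT2B11 lies at chr4:69214749-69214998 and that of UGT2B15 at chr4:68670653-68670902, both on the minus strand.
UGT2B11: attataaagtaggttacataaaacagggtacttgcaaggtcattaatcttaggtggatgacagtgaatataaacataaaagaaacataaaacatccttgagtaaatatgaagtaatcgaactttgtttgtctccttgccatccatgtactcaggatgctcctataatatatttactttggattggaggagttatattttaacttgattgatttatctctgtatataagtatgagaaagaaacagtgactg
UGT2B15: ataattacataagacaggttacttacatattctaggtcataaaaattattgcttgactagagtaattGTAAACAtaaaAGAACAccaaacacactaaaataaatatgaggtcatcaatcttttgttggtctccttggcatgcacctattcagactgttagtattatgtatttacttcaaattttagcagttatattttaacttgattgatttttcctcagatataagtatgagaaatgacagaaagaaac
UGT2B15 held the half-site 172 bases and the forkhead motif 183 bases before its start. In 250 bases before the start of 35116 genes, searched on both strands, the half-site occurred in 12.4% and the forkhead motif in 2.98%. UGT2B11 held neither, and none of the 4 promoters held the octamer ATGCAAAT (1.63% of all) or the HNF1 half-site GTTAAT (6.23%). TATAAA occurred in the promoters of UGT2B11 and UGT2B10 (10.7% of all). Such matches describe letters and do not show binding. The UGT2B11 promoter was identical to that of UGT2B10 at 90.2% of aligned bases and to that of UGT2B15 at 71.3%. All 4 were rich in A and T, at 67.2% to 71.6%, against a median of 42.0% over all promoters.

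Other UGT enzymes had few reads. Of 15 UGT genes outside the UGT2B family 1 was tested, UGT8, which makes galactosylceramide with UDP-galactose and does not use UDP-glucuronate. UGT8 had 129, 150 and 147 counts in rescue, 102, 85 and 122 in knockdown and 6, 2 and 4 in control. UGT8 moved opposite to UGT2B11, UGT2B15 and UGT2B17. It rose by 4.63 on the log2 scale in knockdown against control (SE 0.37, adjusted p = 4.7e-11) and by 5.08 in rescue against control (SE 0.36, adjusted p = 3.2e-12).

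The genes around the conjugation step were compared with the fall of the UGT2B enzymes. For the supply of UDP-glucuronate, 4 of 11 tested genes were called higher in knockdown against control and 0 lower, a share of calls close to the 32.1% of all genes. UGDH, which makes UDP-glucuronate, had 83.9 ± 5.93 CPM in rescue, 114 ± 12.1 in knockdown and 98.4 ± 4.0 in control, and was called at a log2 fold change of 0.21 in knockdown against control (adjusted p = 0.045) and of −0.44 in rescue against knockdown (adjusted p = 0.00045). Of 8 tested genes of sulfation and of conjugate removal, 1 was higher and 3 lower in knockdown against control, where 32.1% of all genes were called. SULT2B1, a steroid sulfotransferase, averaged 25.8 ± 2.04 CPM in knockdown and 42.3 ± 2.0 in control (log2 fold change −0.71, adjusted p = 3.1e-06). PAPSS2, which makes the sulfate donor, averaged 3.15 ± 0.917 CPM in knockdown and 0.319 ± 0.0824 CPM in control (log2 fold change 3.30, adjusted p = 3.7e-07). GUSB, the glucuronidase that releases steroids from their glucuronides and a gene chosen after its values were seen, had 70.3 ± 1.89 CPM in knockdown and 70.4 ± 2.23 CPM in control.

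All 4 tested genes of conjugate export and steroid uptake were called in knockdown against control, 3 higher and 1 lower, beside 32.1% of all genes. ABCC4, an exporter of steroid conjugates, averaged 291 ± 21.5 CPM in knockdown and 234 ± 8.68 CPM in control (log2 fold change 0.31, adjusted p = 0.0014). In rescue it averaged 217 ± 13.5 CPM, a log2 fold change of −0.43 against knockdown (adjusted p = 0.0002). Of 9 tested genes of androgen synthesis and interconversion 5 were higher in knockdown and 0 lower, again beside 32.1% of all genes called. They included CYP11A1, the side-chain cleavage enzyme, at 2.88 ± 0.178 CPM in knockdown and 0.606 ± 0.342 CPM in control, and HSD17B6, a steroid dehydrogenase (log2 fold change 0.89, adjusted p = 0.027). CYP11A1 rose by 2.25 on the log2 scale and the 4 others by 0.28 to 0.89, beside log2 fold changes of −1.97 for UGT2B17, −2.74 for UGT2B15 and −5.92 for UGT2B11.

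Among 13 tested factors that are reported to regulate UGT2B genes, 2 were called higher and 2 lower in knockdown against control, a share of calls close to that of all genes. AHR, the aryl hydrocarbon receptor, moved in the same order as UGT2B15 and UGT2B17: it had 1.78 ± 0.0657 CPM in rescue, 4.34 ± 0.374 in knockdown and 13.3 ± 1.2 in control. It was called in all 3 comparisons, at −1.62 in knockdown against control, −1.28 in rescue against knockdown and −2.90 in rescue against control. FOXA1, the forkhead factor of luminal cells, chosen after its values were seen, averaged 265 ± 3.14 CPM in rescue, 243 ± 8.57 in knockdown and 278 ± 33.1 in control and was not called in any of the 3 comparisons. Of 12 tested genes outside the family that androgen is reported to repress, 4 were lower and 4 higher in knockdown, with 32.1% of all genes called: OPRK1 fell by 4.50 and ACKR3 by 3.00 on the log2 scale, and PEG3 rose by 3.69.

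Last, the genes whose pattern over the 9 libraries was most like each member were named by the root mean square distance between centred log2 CPM values, among 15107 candidates. The members themselves were compared first. UGT2B15 and UGT2B17 were at a distance of 0.439 log2 units from each other, UGT2B11 at 1.522 from UGT2B15 and 1.879 from UGT2B17, and UGT2B28 at 4.429 or more from the others. Nearest to UGT2B17 were TLE1, a corepressor, at 0.195, the phosphatase PTPRK at 0.214 and RHOBTB3 at 0.226. TLE1 had 4.32 ± 0.875 CPM in rescue, 7.46 ± 0.854 in knockdown and 25.6 ± 2.07 in control. MAN1A1, a mannosidase, at 0.296, FAHD2P1 at 0.317 and FN1, fibronectin, at 0.342 were nearest to UGT2B15. LHX6, a homeobox gene at 0 in every rescue and knockdown library, ECHDC1 and OPRK1 were nearest to UGT2B11, at 0.811 to 0.846. No gene came close to UGT2B28, for which ADAM2, DLX1 and PEG3 were nearest at 2.325 to 2.368.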

How the data were processed

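Per the labels, RNA from LNCaP cells was sequenced on a NovaSeq as paired reads of 150 bases, 3 libraries per group. Each library has 1 deposited table of raw read counts by gene. The submitters' processing notes name the tools HISAT2, HTSeq, FastQC and cutadapt and the build hg19; versions and the strand setting were not given in the sources used here. Reads in no gene were 48.83% to 50.71% of each table, ambiguous ones 2.26% to 2.67% and ones not aligned uniquely 5.26% to 7.62%; these rows were left out.

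Of 60880 gene identifiers, 40608 were named from a symbol table and 16250 from GENCODE v29, and 4022 had no name. The gene models at hand are of another build, so coordinates of the counted genes are not given; they served for order, exon length and sequence. The printed coding window, the one with the most differences between UGT2B28 and UGT2B11, was chosen in an alignment of the coding sequences with MAFFT 7.526. Identities come from global alignments of each pair in Biopython 1.88. Promoter sequences come from RefSeq.

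The counts were tested in edgeR 4.0.16 under R 4.3.3: filterByExpr (minimum count 10; 18389 genes), TMM scaling and 1 robust quasi-likelihood fit over the 9 libraries, with a mean for each group and 6 residual degrees of freedom. All adjusted p-values of genes come from this test with Benjamini-Hochberg adjustment over all tested genes, and a gene was called under 0.05. The SE of a fold change was worked back from the test and can fall below that of other tools where counts are few: for UGT2B28 in rescue against knockdown DESeq2 1.42.0 gave 0.763 and limma voom 3.58.1 gave 0.681. Levels are CPM with TMM-scaled library sizes, as mean ± SD. The code was tested on simulated counts with known changes.

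The members, gene lists and tests were chosen with earlier results of these data known. The text names the 7 members, other UGT2A and UGT2B genes, up to 4 called genes of a list by smallest adjusted p in knockdown against control, neighbours of the cluster and the 3 genes most like each member; of these it prints a part, and names outside the rule are marked. Some results are not reported here. Alternatives were RLE scaling or library totals, no filter or a stricter one of 50, DESeq2, limma voom, 2 groups at a time, a block by replicate number, and leaving out each library.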

Additional observations from a re-analysis of the deposited data

How the results depend on the processing

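Counts of members called stayed at 3 in rescue against knockdown and 4 in rescue against control under each of 17 alternatives, and at 3 in knockdown against control except without a filter on low counts, where UGT2B10 made it 4. Both counts with rescue include the overexpressed UGT2B28. The folds of UGT2B10 moved without control replicate 1, to 5.03 and 7.46. Apart from these, 203 recomputed values for single genes kept their direction and side of the threshold. A further 122 counts and ratios stayed close: counts within 1.5 times, and differences in ratio within 1 pooled SD of the 2 groups. By that rule the ratio in rescue against knockdown still ranged from −0.335 to −0.029. Of the single genes, and of the counts and ratios, 1 value each did not hold. Without control replicate 1, UGT2B28 in knockdown against control turned to 0.164 (adjusted p = 0.871); leaving out each library in turn gave −1.455 to 0.164. Genes called in rescue against knockdown came to 1196 without rescue replicate 1, against 1854 with all libraries; leaving out each library in turn gave 1196 to 2363 there, 4858 to 5788 in knockdown against control and 5809 to 6995 in rescue against control. The cause was not tested. Over all tested genes, same-numbered libraries did not deviate together (correlations of −0.037 to 0.077). Such correlations cannot exclude a pairing that touches only some genes. With the replicate block 6348, 2319 and 7363 genes were called in knockdown against control, rescue against knockdown and rescue against control, and 3, 3 and 4 members. Without the block the genes called were fewer, at 5899, 1854 and 6946. For UGT2B28, UGT2B11, UGT2B10 and the antisense RNA the reads in the low groups set the limit. Of the 3 genes most like each member, 3 of 3 were shared with a prior count of 0.5 for UGT2B15 and UGT2B17 and 2 of 3 for UGT2B28 and UGT2B11.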
